A study of Homo sapiens with 2 samples.

Results

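The replication-dependent histone genes are the multicopy genes for the linker histone H1 and the core histones H2A, H2B, H3 and H4 that cells use to package newly made DNA. They were taken as every symbol that begins with HIST and a cluster number from 1 to 4 followed by H, which found 72 of the 25593 rows of the deposited table. These comprised 6 H1, 17 H2A, 20 H2B, 14 H3 and 15 H4 genes, of which 55 lie in the HIST1 cluster on chromosome 6, 13 in HIST2 and 3 in HIST3 on chromosome 1, and 1, HIST4H4, on chromosome 12. The study is on haploid human embryonic stem cells, and HuES53 and HuES64, the lines described here, were diploid controls in it. Each line, derived after in vitro fertilization, contributed 1 library of undifferentiated cells at a passage below 20. RNA was selected through its poly(A) tail before sequencing. With 1 library per line there was no replicate error, so differences are given without a p-value and hold for these 2 libraries alone.

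Most replication-dependent histone mRNAs have no introns and end in a conserved stem-loop instead of a poly(A) tail. The stem-loop is bound by SLBP, the stem-loop binding protein, and the RNA is cut just after it by a machinery that includes the U7 snRNP. Their transcription peaks in S phase, driven by NPAT, and the mRNAs are destroyed when DNA synthesis stops. Some of these genes are also known to make polyadenylated transcripts that run past the stem-loop. Most of the separate replication-independent histone genes make polyadenylated mRNAs that are not confined to S phase. A poly(A)-selected library favours RNA with a tail, so the values below are levels of the selected RNA and not of all histone mRNA. In RNA from a whole culture, fewer cells in S phase and less histone mRNA per cell cannot be told apart.

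The stem-loop letters of the genes that the values turn on are shown because they are the processing signal that separates this family from other genes. They were found by searching the sense strand of GENCODE release 29 transcripts for a 16-base pattern (GG, any 2 bases, CTT, any base, T, any base, AG, any base and GCC), and each line is 5′ to 3′ in DNA letters with the 16 stem-loop bases in capitals.
HIST3H2A: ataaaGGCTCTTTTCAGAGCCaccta
HIST1H2BH: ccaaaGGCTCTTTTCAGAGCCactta
HIST1H2BD: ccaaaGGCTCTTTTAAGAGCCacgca
HIST1H3H: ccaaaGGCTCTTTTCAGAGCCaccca
HIST1H4J: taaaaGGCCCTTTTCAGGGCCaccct
HIST1H4I: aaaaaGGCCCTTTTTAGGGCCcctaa
HIST2H4A: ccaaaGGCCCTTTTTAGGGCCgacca
The letters were found in a transcript of 33 of the 72 genes, and in 115 of all 206694 annotated transcripts, or 0.0556%. Among H4 genes only forms with GGCCC were found, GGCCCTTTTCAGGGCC in 5 genes and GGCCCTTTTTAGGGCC in 3. The commonest form elsewhere was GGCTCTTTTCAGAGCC, in 6 H2A, 8 H2B and 3 H3 genes, and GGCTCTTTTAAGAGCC was found in 3 H2B and 2 H3 genes. The remaining 39 genes had no match, which says only that the annotated transcript does not hold these letters. Their longest annotated transcripts had a median of 393 bases, against 1547 bases for the 33 with a match.

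How few sequenced fragments stood behind these values could be read from the table. FPKM, the deposited unit, is fragments per kilobase of transcript scaled to the total of mapped fragments. For short single-exon genes outside the family, the values rose in whole steps when scaled by the locus length less 210 bases. On that scale, whole numbers to within 0.05 fragments made up 84 of the 102 values under 6 fragments in HuES53 and 65 of the 74 in HuES64. Applied to the histone genes, which were not used to set the steps, 30 of 32 such values were whole in HuES53 and 22 of 25 in HuES64. A value of 1 FPKM over 1 kilobase then stood for 18.8 fragments in HuES53 and 15.4 in HuES64, so the HuES53 library was 1.22 times as deep. The 67 histone genes with a locus under 2300 bases summed to 459 fragments in HuES53 and 424 in HuES64, and 50 and 47 of them had fewer than 6. Intervals given below are 95% exact Poisson intervals on these fragments, or exact conditional intervals on their ratio, and cover counting error only.

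**Figure D1:**
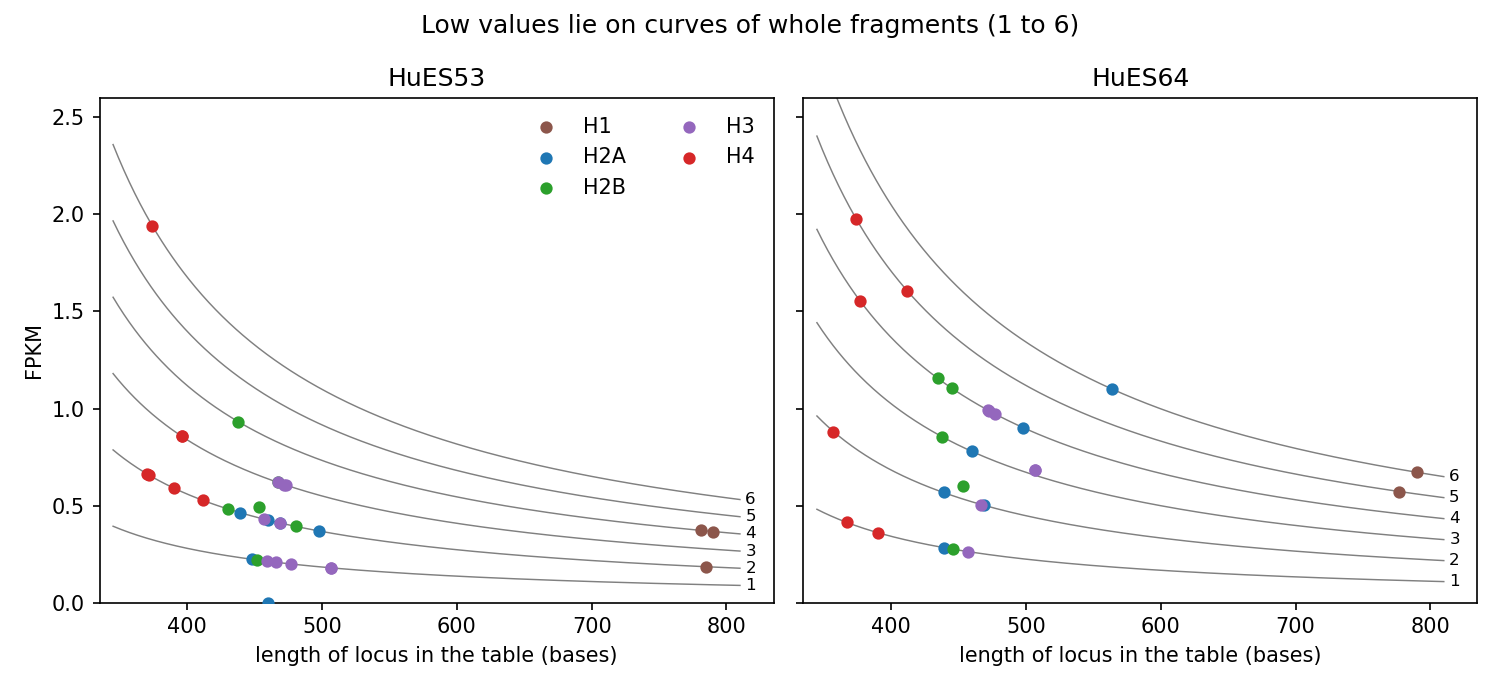
FPKM of each low, nonzero histone gene (points, coloured by type, 1 panel per line) against the length of its locus in bases, with grey curves for 1 to 6 whole fragments. Nearly all points sit on a curve, with 30 of 32 points under 6 fragments in HuES53, and 22 of 25 in HuES64, within 0.05 of a whole number.

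Few of the histone genes reached 1 FPKM, and the level came from a small number of them. At or above 1 FPKM were 19 of 72 (26.4%) in HuES53 and 26 (36.1%) in HuES64, against 54.2% and 53.3% of all 25436 symbols. Among 671 other single-exon genes the shares were 16.4% and 16.5%. A total of 18 histone genes reached 1 FPKM in both lines and 27 in either. In HuES53 20 were listed at 0 and in HuES64 25, with 14 at 0 in both, and 3 fragments, used here as the floor for a value of 0, stand for 0.309 FPKM of HIST1H1T and 1.08 FPKM of HIST1H4B in HuES53. The exact Poisson interval of a count of 0 reaches further, to 3.69 fragments. The median was 0.410 FPKM in HuES53 and 0.636 in HuES64, and the sum was 98.0 and 119.9 FPKM, out of 601128 and 713421 FPKM over the whole table. The 5 highest genes held 47.9% of the sum in HuES53 and 46.0% in HuES64, and the 10 highest 68.9% and 64.3%.

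**Figure D2:**
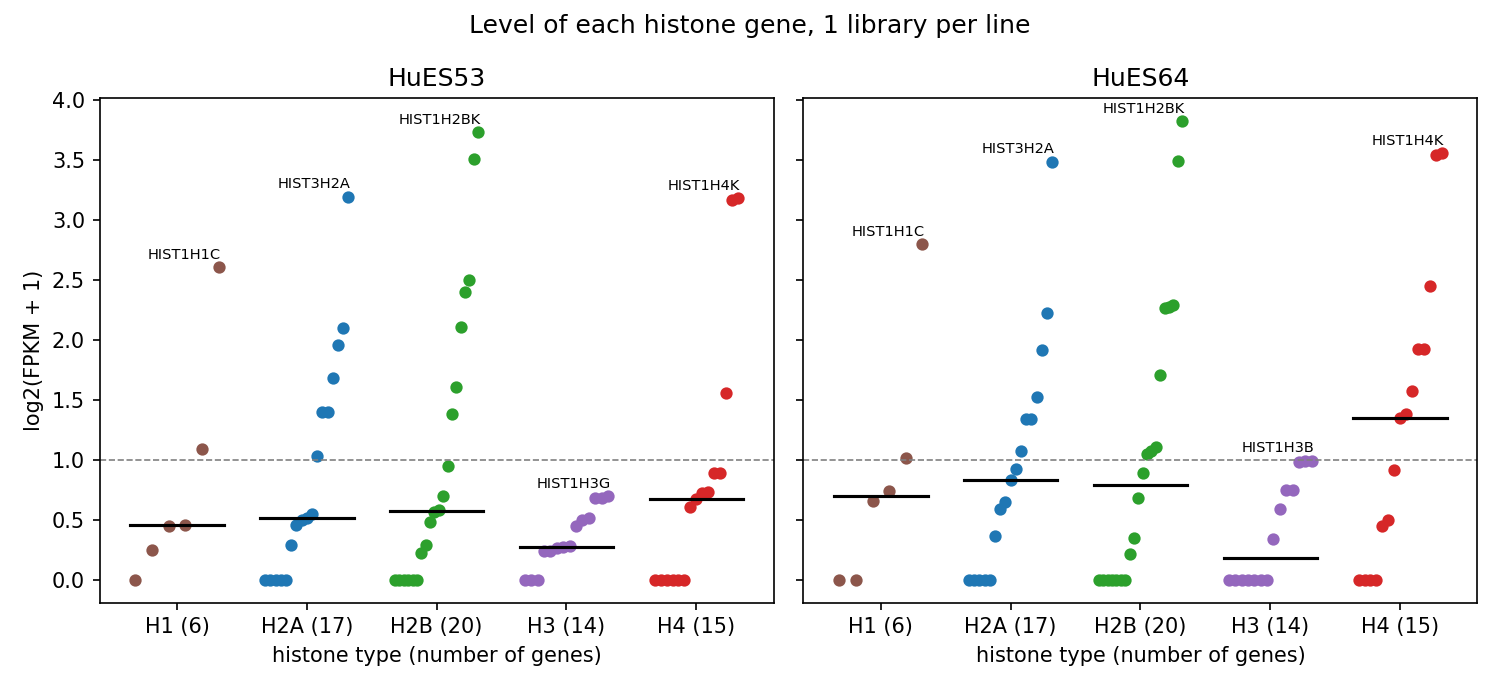
Level of each of the 72 genes as log2(FPKM + 1), by histone type, in 1 panel per line, with 1 point per gene, a black bar at the median of the type and a dashed line at 1 FPKM. Most points lie under the dashed line, no H3 gene is above it in either line, and HIST1H2BK is the highest in both, at 12.3 FPKM in HuES53 and 13.2 in HuES64.

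The core histones were unevenly represented. H2B genes summed to 41.9 FPKM in HuES53 and 42.5 in HuES64, H2A genes to 22.8 and 25.7, H4 genes to 22.2 and 38.3, H1 genes to 7.13 and 8.23 and H3 genes to 4.02 and 5.09. In the nucleosome the 4 core histones are present in equal numbers, and the sums of the selected RNA were not equal: H3 had the lowest in both lines and H2B the highest. At 1 FPKM or more in HuES53 and HuES64 stood 7 and 9 H2B genes, 7 and 7 H2A genes, 3 and 8 H4 genes, 2 and 2 H1 genes, and no H3 gene in either. Across the clusters, HIST1 held 73.7 and 89.9 FPKM, HIST2 15.3 and 18.2, HIST3 8.39 and 10.2, and HIST4 0.526 and 1.61.

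The H1 histones bind the linker DNA between nucleosomes, and HIST1H1C led them. HIST1H1C, at chr6:26055968-26056699 in the coordinates of the deposited table, whose build is not given in the sources used here, read 5.09 FPKM in HuES53 (50 fragments) and 5.97 in HuES64 (48 fragments), which was 71.3% and 72.5% of the H1 sum. The HuES64 value was 1.17 times the HuES53 value, with a counting interval from 0.77 to 1.78, so the lines were not distinguishable for this gene at this depth. It is among the histone genes known to make polyadenylated RNA. HIST1H1D read 1.12 FPKM in HuES53 and 0.572 in HuES64, from 12 and 5 fragments. HIST1H1E, named after its values were seen, had the opposite order, 0.185 and 1.02 FPKM from 2 and 9 fragments, and the ratio of HuES64 to HuES53 was 5.50 with an interval from 1.14 to 52.3. HIST1H1B read 0.366 and 0.671 FPKM, and HIST1H1A 0.372 FPKM in HuES53, with 0 listed for HuES64. HIST1H1T, the linker histone of the testis, was listed at 0 in both.

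H2B pairs with H2A in the nucleosome, and its genes held the highest value of the family. HIST1H2BK read 12.3 FPKM in HuES53 and 13.2 in HuES64, from a locus of 8566 bases that also spans HIST1H4I, so its fragments were not read. HIST1H2BH followed with 10.4 and 10.3 FPKM, from 42 and 34 fragments. Next came HIST1H2BN with 4.67 and 3.81 FPKM (21 and 14 fragments) and HIST2H2BC with 4.28 and 3.84 (30 and 22 fragments), the latter annotated as a transcribed pseudogene. HIST1H2BK and HIST1H2BH led the H2B genes in both libraries, and the next places changed between them. HIST1H2BD, with a locus of 13229 bases, read 2.05 FPKM in HuES53 and 3.90 in HuES64, and HIST2H2BE 1.61 and 1.06 from 61 and 33 fragments. The widest differences among H2B genes ran in opposite directions. HIST1H2BE read 3.31 FPKM in HuES53 and 1.15 in HuES64 (14 and 4 fragments), and HIST1H2BO 0.620 and 2.27 (3 and 9 fragments). The interval of the ratio ran from 0.90 to 11.9 for HIST1H2BE, HuES53 over HuES64, and from 0.92 to 21.1 for HIST1H2BO, HuES64 over HuES53, and both include equal levels. HIST1H2BC, the highest H2B gene with a mean below 1 FPKM, read 0.932 and 0.855 FPKM. HIST1H2BG, named after its values were seen, was listed at 0 in HuES53, where 3 fragments stand for 0.678 FPKM, and read 1.11 FPKM in HuES64.

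The same 7 of 17 H2A genes reached 1 FPKM in both libraries. HIST3H2A, at chr1:228645065-228645560, led with 8.17 FPKM in HuES53 and 10.2 in HuES64, from 44 and 45 fragments. HIST2H2AC read 3.28 and 2.77 FPKM, HIST1H2AM 2.88 and 1.88, HIST1H2AC 2.21 and 3.67, and HIST1H2AE 1.05 and 1.10, on 6 to 19 fragments each. HIST1H2AC is another gene also known as a polyadenylated RNA. HIST2H2AA3 and HIST2H2AA4 carried one and the same pair of values, 1.64 FPKM in HuES53 and 1.54 in HuES64. Their annotated coding sequences of 393 bases did not differ at any base, so reads from the coding part cannot be assigned to either copy. HIST1H2AG, the highest H2A gene with a mean below 1 FPKM, read 0.369 and 0.902 FPKM.

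Many H2A and H2B genes lie head to head and share the DNA between their starts, and the levels on the 2 sides of this DNA were not always alike. The table held 12 such pairs with gaps of 239 to 346 bases, 9 in HIST1, 2 in HIST2 and 1 in HIST3, and in 7 of them a gene had a mean of at least 1 FPKM. HIST3H2A read 8.17 and 10.2 FPKM, while its partner HIST3H2BB read 0.220 FPKM in HuES53, with 0 listed for HuES64, that is, 44 and 45 fragments against 1 and 0. In the pair of HIST1H2BN and HIST1H2AK the H2B side was the higher, 4.67 against 0.425 FPKM in HuES53 and 3.81 against 0.779 in HuES64. HIST2H2AC exceeded HIST2H2BE, 3.28 against 1.61 and 2.77 against 1.06 FPKM, and HIST1H2AC exceeded HIST1H2BC, 2.21 against 0.932 and 3.67 against 0.855. In fragments HIST2H2AC was the lower, 14 against 61 for HIST2H2BE in HuES53 and 10 against 33 in HuES64. The order in FPKM rests on the locus lengths, 437 bases for HIST2H2AC and 2223 for HIST2H2BE. HIST2H2BC exceeded HIST2H2AA4, 4.28 against 1.64 and 3.84 against 1.54 FPKM. For HIST1H2AM and HIST1H2BO the order was not the same in the lines, 2.88 against 0.620 in HuES53 and 1.88 against 2.27 in HuES64. Over the 12 pairs the H2A gene was the higher in both lines in 4, the H2B gene in 3, and neither in 5. Some of these orders rest on very few fragments. In a pair counted for H2B, both genes had about 2 fragments in each line. In a pair counted for H2A, the genes had 2 and 0 fragments in HuES53 and 1 and 1 in HuES64. A pair counted as neither was listed at 0 for both genes in both lines. HIST3H2BB and HIST1H2AK are named as neighbours of higher genes.

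**Figure D3:**
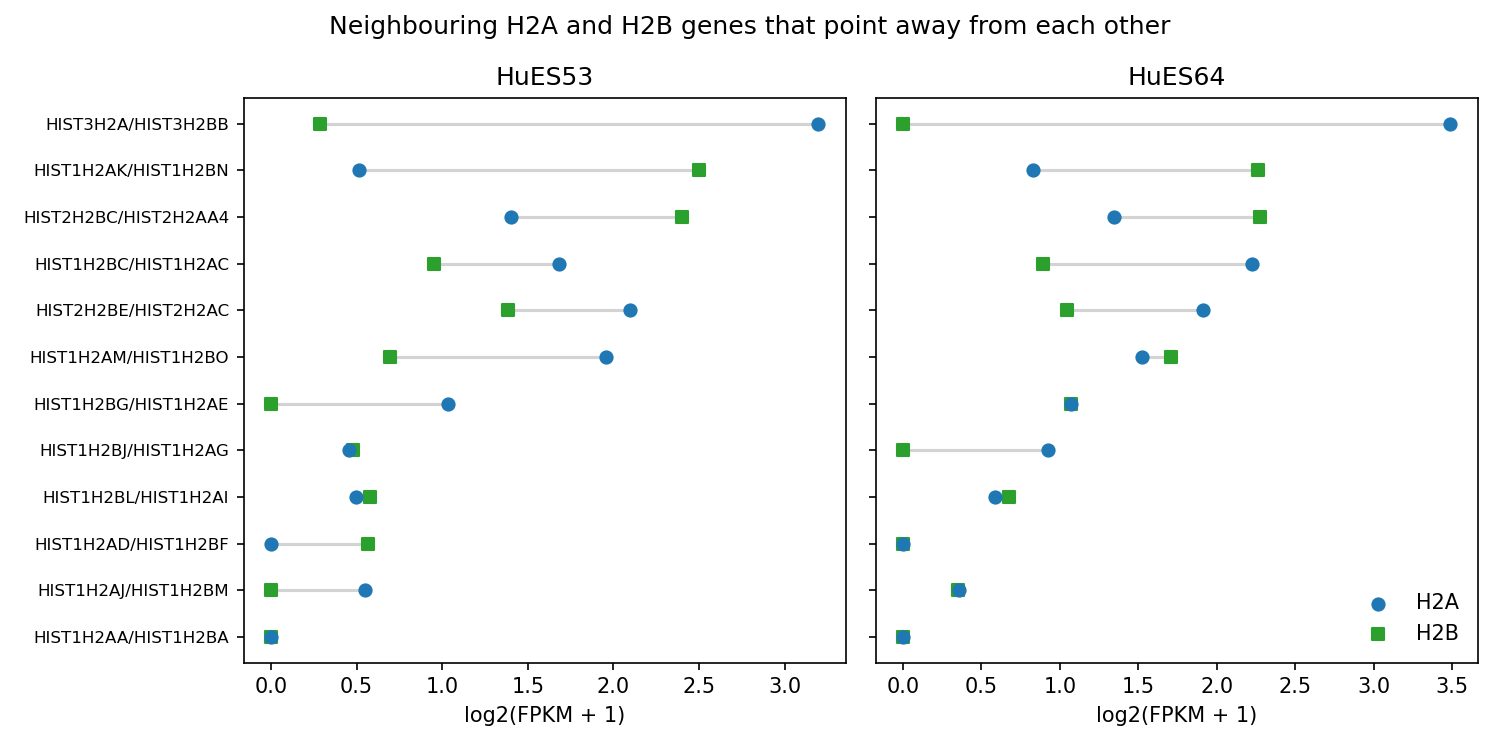
Levels as log2(FPKM + 1) of the H2A gene (circle) and the H2B gene (square) of each of the 12 head-to-head pairs, 1 row per pair and 1 panel per line, ordered by the highest value of the pair. HIST3H2A stands far from its partner HIST3H2BB in both panels, while HIST1H2AM and HIST1H2BO change order between the panels.

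H3 genes were the lowest type. None of the 14 reached 1 FPKM in either library, and the 13 with a short locus summed to 18 fragments in HuES53 and 21 in HuES64. HIST1H3B was the highest by mean, with 0.608 FPKM in HuES53 and 0.991 in HuES64, from 3 and 4 fragments. HIST1H3H was close to it, 0.606 and 0.988 FPKM from as many fragments. HIST2H3A and HIST2H3C, with coding sequences of 411 bases that did not differ, both read 0.179 and 0.683 FPKM. HIST3H3, a testis histone, was listed at 0 in both.

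H4 was the type that differed most between the lines, and all of its genes whose mean reached 1 FPKM were higher in HuES64. HIST1H4I, HIST2H4A, HIST2H4B and HIST4H4 read less than 1 FPKM in HuES53 and reached that mean only through HuES64. The filter thus favours that direction for these genes. Only 3 H4 genes, HIST1H4H, HIST1H4J and HIST1H4K, reached 1 FPKM in both lines. HIST1H4K read 8.08 FPKM in HuES53 and 10.8 in HuES64, and HIST1H4J 7.98 and 10.6, each from 22 and 24 fragments. Their coding sequences of 312 bases did not differ at any base, so reads from the coding part cannot be assigned to either gene and the values are not independent. HIST1H4I, at chr6:27107088-27107457, showed the widest difference of the family, 0.663 FPKM in HuES53 and 4.46 in HuES64, from 2 and 11 fragments. The HuES64 value was 6.72 times the HuES53 value, with a counting interval from 1.47 to 62.4, and the gene lies inside the locus given for HIST1H2BK. That interval is for a single gene and makes no allowance for its choice as the widest of 72. HIST2H4A and HIST2H4B, also identical over their 312 coding bases, both read 0.857 and 2.81 FPKM, from 3 and 8 fragments, with a ratio of 3.27 and an interval from 0.78 to 19.1. That interval uses the fragments of a single copy. How the copies share reads was not tested, so it may not give the counting error of the pair. HIST4H4 read 0.526 and 1.61 FPKM from 2 and 5 fragments, and HIST1H4H 1.94 and 1.98 from 6 and 5. HIST1H4E, the highest H4 gene with a mean below 1 FPKM, was listed at 0 in HuES53, where 3 fragments stand for 0.954 FPKM, and read 1.55 FPKM in HuES64. Over all 15 H4 genes the fragments came to 63.9 in HuES53 (interval 49.3 to 81.7) and 92.9 in HuES64 (75.1 to 114), not scaled for depth. Copies that share reads each entered with their own value. Whether a shared read was divided between copies or counted in each was not tested.

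Because identical copies share reads, it bears on these values how alike the genes of a type are. Compared position by position between coding sequences of equal length within a type, the median identity was 89.8% for H2B (84.8 to 94.0%, 105 pairs), 85.4% for H3 (81.0 to 100%, 91 pairs), 85.2% for H2A (77.6 to 100%, 79 pairs) and 83.7% for H4 (79.2 to 100%, 91 pairs). The only pairs with no differing base were HIST1H4J and HIST1H4K, HIST2H2AA3 and HIST2H2AA4, HIST2H3A and HIST2H3C, and HIST2H4A and HIST2H4B. The 3 HIST2 pairs carried the same value to every digit in the table, while HIST1H4J and HIST1H4K differed slightly.

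The differences between the libraries were put on the scale of log2(FPKM + 1) in HuES53 minus HuES64, for genes whose mean over both lines reached 1 FPKM, a scale that understates the fold of low genes. Of the 72 histone genes 23 met this level, and 14 of them were higher in HuES64 and 9 in HuES53, beside 47.5% of all 13790 genes higher in HuES64. Their median was −0.09, against 0.03 over all genes. At least 2-fold higher in HuES64 were 4, beside 1.7% of all genes, namely HIST1H4I (−1.71), HIST2H4A and HIST2H4B (−1.04 each) and HIST1H2BO (−1.01). The identical HIST2 copies count as 1 measurement, which leaves 3. HIST1H4I, HIST2H4A, HIST2H4B and HIST1H2BO were each below 1 FPKM in HuES53 and passed the filter only through HuES64. The share over all genes was not matched for level or fragments. With a minimum mean of 5 FPKM, 6 histone genes were counted, and 0 were 2-fold higher in HuES64. At least 2-fold higher in HuES53 was none, beside 2.15% of all genes, and HIST1H2BE stood just under the line at 0.999. All 7 H4 genes had negative differences with a median of −0.77, while the medians were 0.06 for 7 H2A and 0.07 for 8 H2B genes. The 7 include HIST1H4J with HIST1H4K and HIST2H4A with HIST2H4B, pairs that share reads. Among the 7, HIST1H4I, HIST2H4A, HIST2H4B and HIST4H4 passed the filter only through HuES64, so their direction is not independent of it. The H4 median was −0.38 over the 5 genes left without the identical HIST2 copies, and also over the 5 left without overlapping genes. With no filter, 10 of 15 H4 genes were higher in HuES64, with a median of −0.38. When FPKM was rescaled to the same sum in both libraries, as in TPM, the median of all genes moved to 0.25 and that of the histone genes to 0.11, 13 of the 23 were then higher in HuES53, and 6 of the 7 H4 genes stayed higher in HuES64, the exception being HIST1H4H at 0.17. Across the 72 genes the levels in the libraries went together, with a Pearson correlation of log2 values of 0.883 and a Spearman correlation of 0.760, given as a description over genes, some of which share reads.

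**Figure D4:**
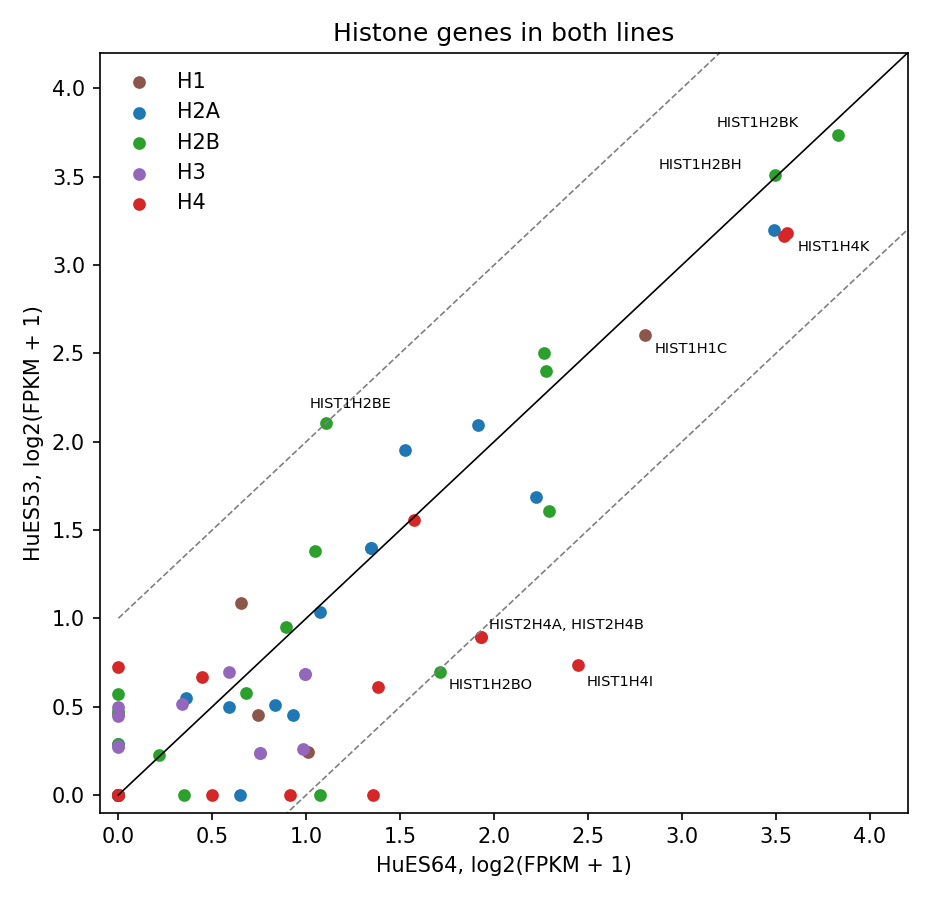
Level of the 72 genes in HuES53 against HuES64, both as log2(FPKM + 1), coloured by type, with the line of equal levels and dashed lines at a 2-fold difference on this scale. HIST1H4I, HIST2H4A, HIST2H4B and HIST1H2BO lie beyond the dashed line toward HuES64, and HIST1H2BE lies at the other one with 0.999.

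The promoters are shown for the leading genes of H1, H2A and H2B, for the near-identical pair HIST1H4J and HIST1H4K, and for HIST1H4I. Each is the 150 bases before the RefSeq start in GRCh38.p14, 5′ to 3′ along the gene, with matches on either strand in capitals. The letters searched were TATAAA (bound by the TATA-binding protein), CCAAT (the site of NF-Y), ATTTGCAT (the octamer), AAACACA (a box of H1 promoters) and GGTCC (part of an H4 element). A match on the opposite strand appears reversed, as ATTGG for the NF-Y site, and overlapping matches run together. The windows are chr6:26056471-26056620 on the minus strand for HIST1H1C, chr1:228457874-228458023 minus for HIST3H2A, chr6:27146859-27147008 minus for HIST1H2BK, chr6:26251464-26251613 plus for HIST1H2BH, chr6:27823942-27824091 plus for HIST1H4J, chr6:27831561-27831710 minus for HIST1H4K and chr6:27139132-27139281 plus for HIST1H4I.
HIST1H1C: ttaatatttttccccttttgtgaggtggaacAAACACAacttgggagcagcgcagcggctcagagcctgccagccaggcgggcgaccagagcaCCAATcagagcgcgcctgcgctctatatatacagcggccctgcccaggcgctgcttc
HIST3H2A: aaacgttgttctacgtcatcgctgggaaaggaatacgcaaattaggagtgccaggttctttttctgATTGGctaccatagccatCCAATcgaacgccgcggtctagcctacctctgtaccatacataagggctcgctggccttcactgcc
HIST1H2BK: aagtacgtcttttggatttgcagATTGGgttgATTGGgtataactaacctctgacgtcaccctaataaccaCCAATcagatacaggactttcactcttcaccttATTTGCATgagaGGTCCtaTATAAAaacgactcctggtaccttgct
HIST1H2BH: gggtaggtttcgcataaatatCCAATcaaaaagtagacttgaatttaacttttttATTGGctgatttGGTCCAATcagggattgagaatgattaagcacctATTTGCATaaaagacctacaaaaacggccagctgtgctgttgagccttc
HIST1H4J: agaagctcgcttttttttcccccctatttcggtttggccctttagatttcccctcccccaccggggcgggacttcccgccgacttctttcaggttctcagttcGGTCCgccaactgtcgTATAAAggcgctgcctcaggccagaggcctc
HIST1H4K: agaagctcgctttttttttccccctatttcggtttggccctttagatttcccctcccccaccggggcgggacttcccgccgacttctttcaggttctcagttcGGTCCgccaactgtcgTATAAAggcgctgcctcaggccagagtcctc
HIST1H4I: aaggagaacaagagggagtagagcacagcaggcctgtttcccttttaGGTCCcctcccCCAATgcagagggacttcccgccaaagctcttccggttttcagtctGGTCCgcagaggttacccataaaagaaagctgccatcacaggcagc
The letters were unevenly spread over the histone types. Promoters of 65 of the 72 genes were matched, and the search covered the 250 bases before the start, with the shares among all 35116 RefSeq promoters beside it. CCAAT, the letters read by NF-Y, was in 55 of 65 (84.6%, all promoters 32.0%), that is, in every matched H1, H2A, H2B and H3 promoter and in 3 of 13 H4 promoters. ATTTGCAT, the octamer read by POU2F1, was in 26 of 65 (all promoters 1.63%), of which 14 were H2B, 11 H2A and 1 H3, and in no H1 or H4 promoter. AAACACA, a box known from H1 promoters, was in all 6 H1 promoters and in none of another type, against 4.82% of all promoters. TATAAA was in 43 (66.2%, all promoters 10.7%). GGTCC, part of a known H4 element, was in 12 of 13 H4 promoters, but this short string was also in 40.7% of all promoters and in 32.3% of the 65. Each match is a description of letters and not a bound site.

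The letters were also set beside the levels. The 26 genes with ATTTGCAT had medians of 0.380 FPKM in HuES53 and 0.279 in HuES64, and the 39 without it 0.425 and 0.683, while 9 of the 26 and 13 of the 39 had a mean of at least 1 FPKM. With CCAAT the medians were 0.410 and 0.572 FPKM over 55 genes, and without it 0.691 and 1.79 over 10. All 10 genes without CCAAT are H4 genes, so these letters and the histone type cannot be told apart in that split. With TATAAA they were 0.410 and 0.683 over 43 genes, and without it 0.396 and 0.588 over 22. The HIST1H4J and HIST1H4K promoters differed at 2 of 150 bases and at 5 of 250, and those of HIST2H4A and HIST2H4B at none of 250. For the other pairs with identical coding sequences, 190 of 250 bases differed for HIST2H2AA3 and HIST2H2AA4 and 179 for HIST2H3A and HIST2H3C. All windows were compared position by position from their RefSeq starts, without alignment. Such counts cannot tell a shifted start from a different sequence. HIST1H4J and HIST1H4K held TATAAA and GGTCC and no CCAAT in the printed window, whereas HIST1H4I held CCAAT and GGTCC and no TATAAA.

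The annotated ends of the transcripts were then set beside the levels. In 24 genes an annotated transcript ran at least 100 bases past the stem-loop, and 12 of them had a mean of at least 1 FPKM, with medians of 0.642 FPKM in HuES53 and 1.13 in HuES64. In 9 genes the transcripts that hold the stem-loop ended within 100 bases of it, 5 with a mean of at least 1 FPKM and medians of 1.05 and 1.10. HIST1H2BD is among the 9 and also has a transcript of 789 bases without the stem-loop letters. Of the 39 genes without the letters 6 had such a mean, with medians of 0.213 and 0. HIST1H2BH, the second highest H2B gene, has an annotated transcript of 2060 bases that runs 1640 bases past the stem-loop, while the locus in the table is 425 bases long. HIST3H2A has one of 895 bases that runs 390 past it, against a locus of 496 bases. A longer transcript than the locus used would change the length by which fragments are divided, and its part in these levels was not tested. In 21 genes AATAAA or ATTAAA was in the last 40 bases of an annotated transcript that either ran at least 100 bases past the stem-loop or had no stem-loop. HIST2H2AA3, HIST2H2AA4 and HIST1H4J also have the letters in the last 40 bases, but their transcripts end 35, 35 and 6 bases past the stem-loop, and they are not among the 21. The 21 genes had medians of 0.857 FPKM in HuES53 and 1.15 in HuES64, against 0.365 and 0.284 for the other 51. A mean of 1 FPKM was reached by 11 of the 21 and 12 of the 51. The 51 include HIST1H2BK and HIST1H1C and had the larger sum, 54.2 and 68.0 FPKM against 43.8 and 51.8. Their longest annotated transcripts had a median of 411 bases, against 1694 for the 21. The part of annotation length in this split was not tested. A list of 6 genes was made from general knowledge as also polyadenylated, HIST1H1C, HIST1H2AC, HIST1H2BC, HIST1H2BD, HIST1H2BK and HIST2H2BE, and they summed to 24.2 FPKM in HuES53 and 28.7 in HuES64. Of the 5 with a mean of at least 1 FPKM, 4 were higher in HuES64, which became 2 when rescaled as in TPM.

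Of the 20 replication-independent histone genes in the table, 12 reached a mean of 1 FPKM, and most of these stood far above the family in the same libraries. The other 8 did not reach it, and 4 of them, H1FNT, HILS1, H2AFB2 and H2AFB3, were listed at 0 in both lines. H2AFZ, for the variant H2A.Z, read 783 FPKM in HuES53 and 760 in HuES64, H3F3A 390 and 435, and H3F3B, which like H3F3A encodes the variant H3.3, 250 and 255. The summed FPKM of the variants that reached 1 FPKM was 23.6 and 26.1 times that of all replication-dependent genes for H1, 45.5 and 40.6 times for H2A, and 171 and 145 times for H3. Both H1 variants, all 4 H3 variants and 5 of 6 H2A variants whose mean reached 1 FPKM lay above the highest replication-dependent gene of their type in both lines. Of 12 variants at that level, 3 were higher in HuES53 and 9 in HuES64 (8 and 4 when rescaled as in TPM), with a median difference of −0.12 and none past 2-fold.

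**Figure D5:**
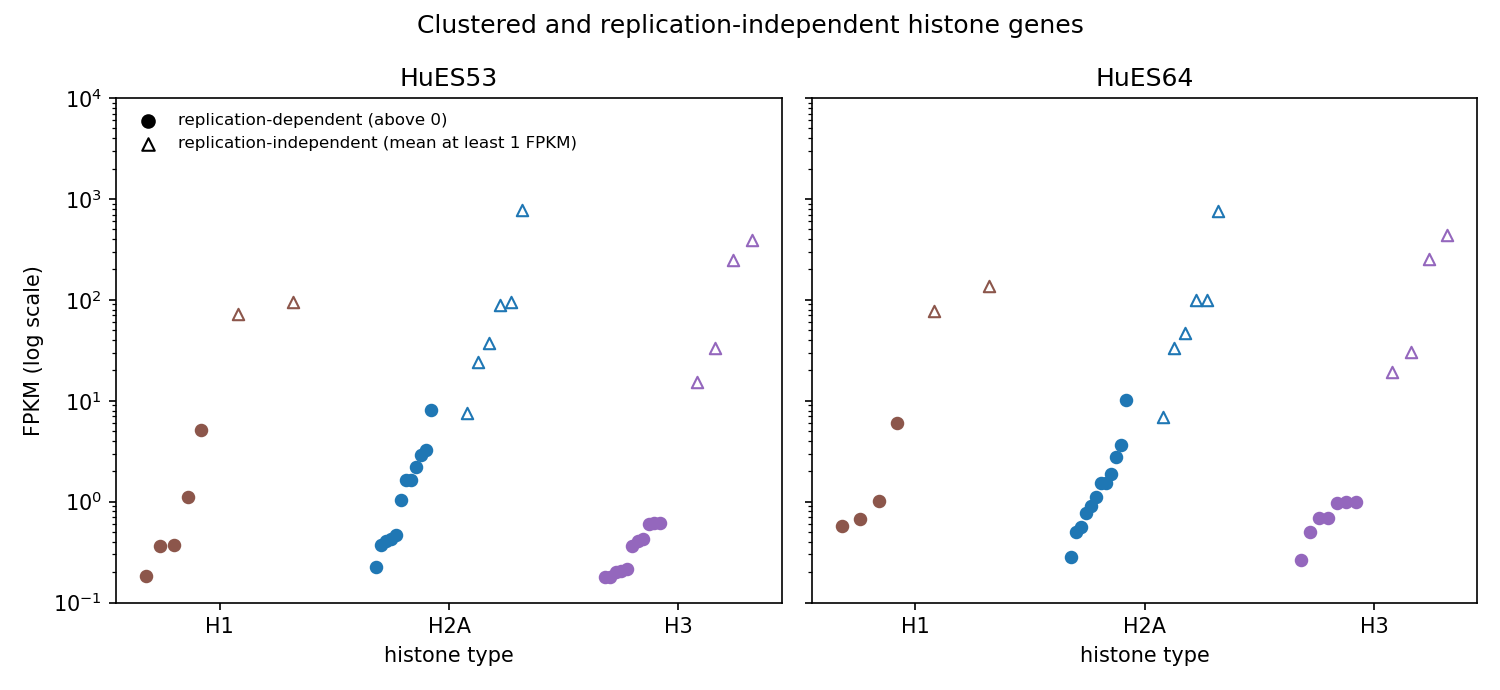
FPKM on a log axis of replication-dependent genes above 0 (filled circles) and replication-independent genes whose mean reached 1 FPKM (open triangles), by histone type and line. HIST1H2AD is below the axis at 9.77e-06 FPKM in HuES53, and the triangles reach 783 FPKM for H2AFZ.

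The genes that make, process and turn over histone mRNA formed 3 lists, and none of their genes differed 2-fold between the lines on the deposited scale. NPAT, the histone gene activator, read 4.22 FPKM in HuES53 and 2.94 in HuES64, and its partner CASP8AP2 4.01 and 2.98. The highest of this transcription list were YY1 with 45.3 and 36.5 FPKM, CDK2, which phosphorylates NPAT, with 26.4 and 22.5, and its cyclin CCNE1 with 22.7 and 22.0. Of the 10 genes 8 were higher in HuES53, also when rescaled as in TPM, and the median was 0.32 beside 0.03 over all genes. SLBP read 46.0 FPKM in HuES53 and 45.0 in HuES64. In the list for 3' end processing, led by the Sm proteins SNRPB (336 and 462), SNRPF (222 and 290) and SNRPG (174 and 231), 8 of 19 were higher in HuES53 and 11 in HuES64, with a median of −0.04, and the split turned to 12 and 7 when rescaled as in TPM. In the list for translation and decay 10 of 11 genes reached a mean of 1 FPKM, led by LSM4 (296 and 428), LSM1 (69.6 and 70.2) and DDX19B (32.0 and 39.3), with 6 higher in HuES53, 4 in HuES64 and a median of 0.22 (7 and 3 when rescaled as in TPM, with ZCCHC11 past 2-fold in HuES53).

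Histone chaperones and S phase genes were split between the lines. Among 22 chaperones and importers 13 were higher in HuES53 and 9 in HuES64, with a median of 0.06. NAP1L1 read 238 FPKM in HuES53 and 237 in HuES64, NASP, which binds H1 and H3, 203 and 179, and SSRP1, a subunit of FACT, 142 and 147. Of 19 S phase genes at that level 9 were higher in HuES53 and 10 in HuES64, with a median of −0.05. PCNA, the sliding clamp of DNA polymerase, read 231 and 226 FPKM, TYMS 89.6 and 102, and SLC29A1 79.2 and 89.8. Rescaled as in TPM, 19 of 22 chaperones and 16 of 19 S phase genes were higher in HuES53. Neither list had a gene past 2-fold, and the shift goes with that of the median of all genes to 0.25.

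The labelled cell type was checked against its markers. All 6 pluripotency markers were well above 1 FPKM in both lines, from NANOG with 94.4 FPKM in HuES53 and 84.7 in HuES64 up to POU5F1 with 1053 and 1381, with TDGF1 at 723 and 528 and LIN28A at 430 and 448. None of 4 neural, 3 blood and 2 muscle markers had a mean of 1 FPKM, and MYOD1 was listed at 0 in both. Of the fibroblast markers COL1A1 read 138 and 168 FPKM and COL3A1 3.08 and 8.00, the latter 2-fold higher in HuES64 but not when rescaled as in TPM, and LUM 2.26 and 3.47. The 3 endoderm markers did not go one way: AFP read 7.25 and 1.53, 2-fold higher in HuES53, GATA4 11.5 and 7.77, and SOX17 6.89 and 10.6. The part of these cell types in the histone values was not tested.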

How the data were processed

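Per the labels' protocols, poly(A)-selected RNA of HuES53 and HuES64 went into 1 TruSeq library each. The authors deposited 1 table of FPKM values, for which Cufflinks 2.0.2 and TopHat2 2.0.4 appear in the submitters' processing notes. The sources used here name no build, annotation or strand setting. Without strand, reads of overlapping genes cannot be told apart, and histone genes that overlap another gene were left out in an alternative. Loci are printed counting from 1.

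Chromosome Y (136 rows) was not used, and repeated rows of 21 symbols were added up, giving 25436 symbols. Differences are log2(FPKM + 1), HuES53 minus HuES64, for genes whose mean reached 1 FPKM. Fragments were recovered from whole steps of the values on single-exon genes outside the family, 300 to 2300 bases long, with an effective length of the locus less 210 bases, and 1 FPKM over 1 kilobase stood for 18.8 and 15.4 fragments on that reading. The fit was tested on simulated data. Transcripts came from GENCODE release 29 and promoters from RefSeq, GRCh38.p14. Python 3.11.15, pandas 2.3.3, numpy 2.4.6 and scipy 1.17.1 were used.

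The histone genes and all lists were chosen with earlier results of these data known. Named are every histone gene whose mean reached 1 FPKM, the highest below it in each type, exact duplicates, the 3 highest genes of each list (for the neural, blood and muscle markers, none of which reached 1 FPKM, only the count is given) and any list gene that differed 2-fold, and SLBP, NPAT and CASP8AP2. HIST1H1A, HIST1H1B, HIST1H1E, HIST1H1T, HIST1H2AD, HIST1H2AK, HIST1H2BG, HIST1H3H, HIST1H4B, HIST3H2BB, HIST3H3, NANOG, MYOD1, ZCCHC11, H1FNT, HILS1, H2AFB2 and H2AFB3 fall outside this rule and were named after their values were seen. Alternatives were the pseudocount, the minimum level, the scaling, removal of a trend with GC content and length, and leaving out overlapping genes, identical copies or the highest gene.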

Additional observations from a re-analysis of the deposited data

How the results depend on the processing

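The number of histone genes at least 2-fold higher in HuES53 went from 0 to 1, HIST1H2BE, with a pseudocount of 0.1 or 0.5 FPKM and with TPM scaling. The number at least 2-fold higher in HuES64 went from 4 to 5 with a pseudocount of 0.1 or 0.5 FPKM, where HIST4H4 joined, and to 6 with no filter, where HIST1H2BG and HIST1H4E joined. It went to 0 with a minimum mean of 5 FPKM, where fewer genes are counted. It went to 2 without overlapping genes and to 2 without the identical HIST2 copies, both because fewer genes are counted. It went to 1, HIST1H4I, with the trend in GC content and length removed, where HIST2H4A (−0.98), HIST2H4B (−0.98) and HIST1H2BO (−0.87) fell short of 2-fold and the cause was not tested. The median difference of −0.09 moved to −0.24 with a minimum mean of 5 FPKM and to 0.11 with TPM scaling, which shifts the median of all genes to 0.25. A threshold of 0.1 FPKM in place of 1 counted 51 histone genes in HuES53 and 47 in HuES64, and one of 5 FPKM counted 6 and 6. The log2 ratio of summed FPKM, HuES53 over HuES64, went under TPM scaling from −0.21 to 0.041 for H1, from −0.18 to 0.069 for H2A, from −0.02 to 0.23 for H2B, from −0.34 to −0.093 for H3 and from −0.79 to −0.54 for H4. Without its highest gene H4 stood at −0.97. In an alternative chosen after seeing the data, leaving out the identical HIST2 copies, H3 moved to −0.023 and H4 to −0.68. Depth limits most single genes: 50 of 67 in HuES53 and 47 in HuES64 rest on fewer than 6 fragments. No paired analysis was possible because each line has 1 library. No replicate could be left out for the same reason.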
